A study of Mus musculus with 9 samples.

Results

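The genes described here are Vcam1 and 9 further adhesion receptors, Icam1, Ncam1, Alcam, Cdh2, Cdh11, Cd44, Amigo2, Jam2 and Pcdh7. They were chosen by name, and every probe set annotated with exactly 1 of these symbols was taken. That gave 26 probe sets for 10 genes, of 29131 probe sets with 1 symbol and 15964 genes in all. Of the 26, 15 lay on the MG-U74A array, 8 on MG-U74B and 3 on MG-U74C. Expression was measured in OP9, a line from the calvaria of newborn mice that supports hematopoiesis, in AGM-s3-A9, a supportive line from the aorta-gonad-mesonephros (AGM) region of the embryo, and in AGM-s3-A7, a line from the same region that does not support it. RNA from every line went onto 1 array of each of the 3 Affymetrix types, 9 arrays in all. The labels give no treatment, passage or culture condition, and each line stands for its kind alone.

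Adhesion receptors hold blood-forming cells to the stromal cells beside them. VCAM-1 is the stromal ligand of integrin VLA-4 on hematopoietic stem and progenitor cells, and ICAM-1 is a ligand of leukocyte integrins such as LFA-1; inflammatory cytokines induce both through NF-kB. Cadherins join like cells through calcium-dependent contacts, CD44 binds hyaluronan, and NCAM, ALCAM, JAM-B and AMIGO2 are further members of the immunoglobulin or leucine-rich repeat receptor families.

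RefSeq promoters of build GRCm38.p6, covering 250 bases before and 50 bases after the start of the gene, were found for 5 of the 10 genes. They are shown for Icam1, which was highest in OP9, and for Amigo2, highest in AGM-s3-A7, because these had the highest and the lowest ratio of OP9 over AGM-s3-A7 among the receptors. On normalized values of their brightest probe sets, Vcam1 and Cdh2 shared the order of Icam1, and Cdh11 that of Amigo2. Not all probe sets of Vcam1 and Cdh11 shared it, and on intensities as deposited the brightest ones of Cdh2 and Cdh11 did not. No window was found for these 3 genes. The Icam1 window is chr9:21015690-21015989 on the plus strand and the Amigo2 window is chr15:97247238-97247537 on the minus strand. Capitals mark matches to GGNNNTTCC, a 9-letter form of the NF-kB motif chosen after the sequence was seen. A 10-letter form, with 1 more free base before the closing CC, was searched first and had 0 matches in both.
Icam1: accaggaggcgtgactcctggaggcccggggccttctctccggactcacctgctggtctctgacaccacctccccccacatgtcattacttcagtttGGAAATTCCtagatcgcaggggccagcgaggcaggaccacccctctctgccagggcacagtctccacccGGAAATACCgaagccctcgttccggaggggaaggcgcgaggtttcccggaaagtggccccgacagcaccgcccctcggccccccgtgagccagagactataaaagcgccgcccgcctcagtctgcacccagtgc
Amigo2: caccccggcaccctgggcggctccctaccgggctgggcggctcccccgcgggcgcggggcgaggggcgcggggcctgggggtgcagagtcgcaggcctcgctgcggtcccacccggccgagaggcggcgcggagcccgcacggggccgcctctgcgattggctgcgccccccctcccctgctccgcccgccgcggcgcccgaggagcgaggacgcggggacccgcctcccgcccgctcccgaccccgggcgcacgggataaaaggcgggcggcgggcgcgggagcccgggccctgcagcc

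The Icam1 window held the 9-letter motif at 2 positions, 1 of which reads as a match on both strands, and the windows of Amigo2, Alcam, Cd44 and Pcdh7 held it at 0. Of 32851 RefSeq promoter windows of the same length, 18.5% held the 9-letter form and 15.3% the 10-letter form. The sequence TATAAA occurred 1 time in the Icam1 window, 13 bases past its start, and 0 times in that of Amigo2; 13.6% of all windows held it. The GC box GGGCGG, on either strand, occurred at 2 positions for Icam1 and 5 for Amigo2, and 35.7% of all windows held at least 1. The share of G and C was 64.7% for Icam1 and 83.3% for Amigo2. These matches describe letters in the windows and say nothing of binding in these cells. Since the 9-letter form was chosen after the sequence was seen, its count in Icam1 cannot be compared with that in other windows.

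All values below are intensities after quantile normalization within an array type, and levels were compared between lines on 1 probe set only, never between probe sets or array types. A probe set was called detected above the higher of the median of its array type and the 95th percentile of control probe sets that should find no target, which came to 49.01 for MG-U74A, 52.8 for type B and 61.6 for type C. A value at or below that level was raised to it, so a fold against such a line is a lower bound. No fold is given where both lines lay there. Since a line had only 1 array of a type, replicate error is lacking and nothing could be tested. As a measure of error, the 2 brightest probe sets that read 1 gene on an array type were paired. From the differences within pairs, a single log2 ratio had a robust SD of 0.31 for OP9 over AGM-s3-A7 (1134 pairs), 0.30 for AGM-s3-A9 over AGM-s3-A7 (1160) and 0.32 for OP9 over AGM-s3-A9 (1128). This SD does not cover separate cultures.

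Stromal markers were detected for 8 of 10 genes in OP9, 9 in AGM-s3-A9 and 9 in AGM-s3-A7, and 3 of the 9 measured, Thy1, S100a4 and the collagen gene Col3a1, were at least 2-fold lower in OP9 than in each AGM line. The median log2 ratio of the 9 was -0.72 for OP9 over AGM-s3-A7, -0.15 for AGM-s3-A9 over AGM-s3-A7 and -0.57 for OP9 over AGM-s3-A9, and the part of this shift in the results below was not tested. Markers were detected of hematopoietic cells for 0 of 8 and of endothelial cells for 0 of 8 in every line. Of 6 epithelial markers, 2 were detected in every line, Cdh1 and Epcam, at levels within 2-fold of each other between the lines. The intermediate filament gene Vim, a mark of mesenchymal cells, was read by its representative probe set at 22.9 in OP9, 21.7 in AGM-s3-A9 and 17.9 in AGM-s3-A7. A value below the detection level is therefore no sign that a transcript is absent.

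Of the 26 probe sets, 14 exceeded the detection level in at least 1 line, and they represent 8 of the 10 genes. Alcam (0 of 4 probe sets) and Jam2 (0 of 2) were not detected in any line. Of the measured probe sets, 2 of 12 reached 2-fold above AGM-s3-A7 in OP9 (Vcam1 and Icam1) and 2 lay at least 2-fold below it (Ncam1 and Amigo2). Among all probe sets measured in that pair, 4.77% were higher and 5.52% lower. In AGM-s3-A9 over AGM-s3-A7, 0 of 14 were at least 2-fold higher and 1 lower (Amigo2), beside 2.88% and 2.18% of all probe sets. In OP9 over AGM-s3-A9, 1 of 14 was higher (Icam1) and 2 were lower (Ncam1 and Amigo2), beside 4.63% and 5.96%. The shares of members rest on few probe sets, several of them for 1 gene.

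**Figure D1:**
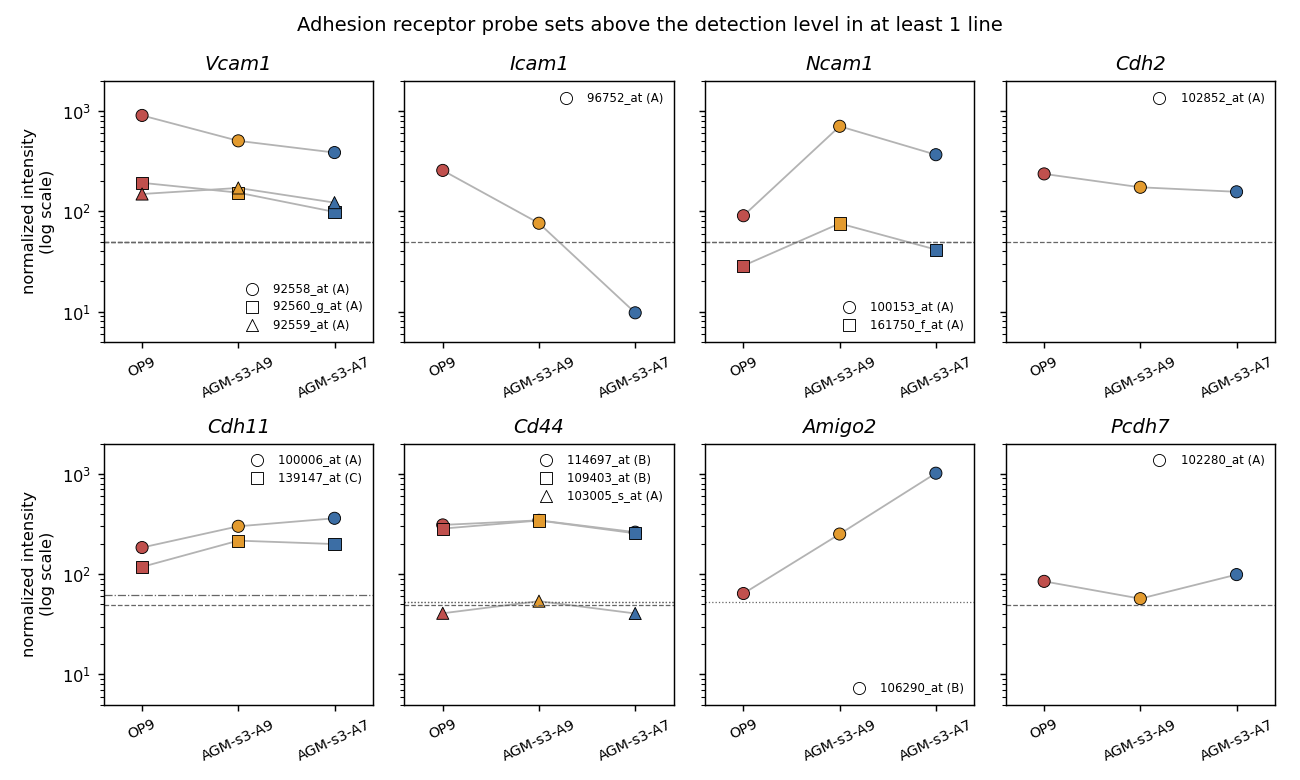
Normalized intensity (log scale) of the 14 detected probe sets in OP9, AGM-s3-A9 and AGM-s3-A7, 1 array a point, with a panel for each gene; marker shapes separate probe sets, letters in brackets give the array type, and the detection level is drawn dashed for MG-U74A, dotted for type B and dash-dotted for type C. Vcam1 and Icam1 were lowest in AGM-s3-A7, Amigo2 was highest there, and Ncam1 was highest in AGM-s3-A9.

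Vcam1 was detected in all 3 lines by all 3 of its probe sets, and each read lowest in AGM-s3-A7. Its brightest probe set, 92558_at, was at 907 in OP9, 506 in AGM-s3-A9 and 387 in AGM-s3-A7. Probe set 92560_g_at, whose suffix marks possible cross-hybridisation, followed the same order, with 193 in OP9, 154 in AGM-s3-A9 and 98.9 in AGM-s3-A7. Probe set 92559_at gave another order of the supportive lines, with 149 in OP9, 171 in AGM-s3-A9 and 122 in AGM-s3-A7. The log2 ratio of OP9 over AGM-s3-A7 was 1.23, 0.96 and 0.29 on the 3 probe sets in this order, so that the first reached 2-fold (2.35-fold) and the last lay within the SD of paired probe sets. The log2 ratio of AGM-s3-A9 over AGM-s3-A7 was more alike, at 0.39, 0.64 and 0.49, each larger than that SD and short of 2-fold. Between the supportive lines the probe sets disagreed in sign, with 0.84, 0.33 and -0.20 for OP9 over AGM-s3-A9. On the brightest probe set, 3.01% of 8739 measured genes had a higher ratio of OP9 over AGM-s3-A7, and 18.6% of 8590 had a higher ratio of AGM-s3-A9 over AGM-s3-A7. On intensities as deposited the log2 ratio of AGM-s3-A9 over AGM-s3-A7 was 1.12, past 2-fold, and that of OP9 over AGM-s3-A9 was 0.19, within the SD. On MG-U74A the median deposited intensity was 64.5 in AGM-s3-A9 and 42.7 in AGM-s3-A7.

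Icam1, whose product is a ligand of leukocyte integrins, had the highest ratio of OP9 over AGM-s3-A7 among the 10 genes. Its 1 probe set was at 257 in OP9, 76.2 in AGM-s3-A9 and 9.74 in AGM-s3-A7, against a detection level of 49.01. The transcript was thus detected in both supportive lines and not in AGM-s3-A7, with OP9 well above AGM-s3-A9. Relative to AGM-s3-A7, OP9 was at least 5.24-fold higher and AGM-s3-A9 at least 1.56-fold. Relative to AGM-s3-A9, OP9 was 3.37-fold higher. Of all measured genes, 0.37% had a higher ratio of OP9 over AGM-s3-A7. As deposited the intensities were 225 in OP9, 103 in AGM-s3-A9 and 9.05 in AGM-s3-A7, in the same order. The log2 ratio was then 1.14 for OP9 over AGM-s3-A9 and at least 1.08 for AGM-s3-A9 over AGM-s3-A7, the last now past 2-fold. With the floor raised to the 75th percentile of all values, which lies above the AGM-s3-A9 value, the log2 ratio of OP9 over AGM-s3-A7 was 0.59 and no longer reached 2-fold.

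Ncam1, which encodes a receptor that binds its own kind and is known for its part between nerve and muscle cells, separated the supportive lines from each other. Probe set 100153_at was at 90.6 in OP9, 707 in AGM-s3-A9 and 368 in AGM-s3-A7. Relative to AGM-s3-A7, OP9 was 4.06-fold lower and AGM-s3-A9 was 1.92-fold higher, which left OP9 7.81-fold below AGM-s3-A9. Of 8760 measured genes, 0.41% had a lower ratio of OP9 over AGM-s3-A9. On deposited intensities the log2 ratio was 1.68 for AGM-s3-A9 over AGM-s3-A7, against 0.94 after normalization, and -3.62 for OP9 over AGM-s3-A9, against -2.96. With the floor at the 75th percentile OP9 lay below it, and the log2 ratio was -1.11 for OP9 over AGM-s3-A7 and -2.05 for OP9 over AGM-s3-A9. A second probe set, 161750_f_at, with a cross-hybridisation suffix, read 28.7 in OP9, 75.8 in AGM-s3-A9 and 41.6 in AGM-s3-A7 and was detected in AGM-s3-A9 alone, where the level was at least 1.55-fold higher. Its order of the lines was that of the first probe set. The other 2 probe sets stayed at or below 21.5 in every line. Several forms of NCAM arise by alternative splicing, and whether the probe sets read different forms was not tested. Neural and muscle markers were detected for 3 of 7 genes in OP9, 4 in AGM-s3-A9 and 4 in AGM-s3-A7, with Gfap, Des and Myog undetected in every line. Map2, a neuronal microtubule gene, read 139 in OP9, 243 in AGM-s3-A9 and 54.4 in AGM-s3-A7. AGM-s3-A9 was highest, as for Ncam1, but OP9 lay above AGM-s3-A7, where Ncam1 had it below. Myod1, a muscle gene, read 63.7 in OP9, 67.4 in AGM-s3-A9 and 87.2 in AGM-s3-A7. Nes, the nestin gene, read 46.5 in OP9, 97.3 in AGM-s3-A9 and 105 in AGM-s3-A7, which put OP9 at least 2.14-fold below AGM-s3-A7. Tubb3, on a probe set whose suffix marks possible cross-hybridisation, read 768 in OP9, 762 in AGM-s3-A9 and 504.1 in AGM-s3-A7. The part of these markers in the Ncam1 result was not tested.

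Amigo2, which encodes a leucine-rich repeat and immunoglobulin domain receptor first studied in neurons, had the largest difference of the 10 genes between lines that both detected it. Its 1 probe set, on MG-U74B, was at 64.05 in OP9, 251 in AGM-s3-A9 and 1016 in AGM-s3-A7, all above the detection level of 52.8. AGM-s3-A9 was 4.05-fold below AGM-s3-A7, and OP9 was 3.92-fold below AGM-s3-A9. On deposited intensities the steps were less even, with log2 ratios of -2.38 and -1.36. Against AGM-s3-A7, OP9 was 15.9-fold lower. A lower ratio of OP9 over AGM-s3-A7 was found for 0.15% of measured genes. For AGM-s3-A9 over AGM-s3-A7 that share was 0.21%. Amigo2 lies on chromosome 15, whose other measured genes had a median log2 ratio of -0.49 for OP9 over AGM-s3-A7. Between the AGM lines this median was -0.17. The part of that chromosome-wide shift in the Amigo2 result was not tested. On the chromosomes of the other 9 genes the medians ran from -0.13 to 0.17 for OP9 over AGM-s3-A7 and from -0.20 to 0.24 between the AGM lines.

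The cadherins showed smaller differences. Cdh11, the osteoblast cadherin of mesenchymal cells, was at 184 in OP9, 300.1 in AGM-s3-A9 and 361 in AGM-s3-A7 on MG-U74A. On MG-U74C, a separate hybridisation, it was at 118 in OP9, 216 in AGM-s3-A9 and 199.5 in AGM-s3-A7. Both probe sets were thus lowest in OP9, by 1.96-fold and 1.69-fold against AGM-s3-A7 and by 1.63-fold and 1.83-fold against AGM-s3-A9. Between the AGM lines the log2 ratio was -0.27 and 0.11, within the SD of paired probe sets and of either sign. Cdh2, which encodes N-cadherin, was at 237 in OP9, 174 in AGM-s3-A9 and 157 in AGM-s3-A7. OP9 was 1.51-fold above AGM-s3-A7, while the difference of the AGM lines, a log2 ratio of 0.15, was within the SD. Pcdh7, a protocadherin, had 1 detected probe set of 3, at 84.7 in OP9, 56.9 in AGM-s3-A9 and 98.9 in AGM-s3-A7. AGM-s3-A9 was 1.74-fold below AGM-s3-A7, and the log2 ratio of OP9 over AGM-s3-A7, -0.22, was within the SD. All 3 Pcdh7 values lay near the detection level. Differences from AGM-s3-A9 depended on the scaling for these genes. As deposited, the log2 ratio of OP9 over AGM-s3-A9 was -0.18 for Cdh2, -0.01 for Pcdh7 and -1.34 for Cdh11, the last past 2-fold. That of AGM-s3-A9 over AGM-s3-A7 was 0.88 for Cdh2, 0.47 for Cdh11 and -0.12 for Pcdh7, so that Cdh2 and Cdh11 then exceeded the SD.

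Cd44, the hyaluronan receptor, did not reach 2-fold in any of the 3 comparisons. Its probe set 114697_at was at 310 in OP9, 344 in AGM-s3-A9 and 262 in AGM-s3-A7. Probe set 109403_at read 284 in OP9, 343 in AGM-s3-A9 and 255 in AGM-s3-A7. Both placed AGM-s3-A9 highest and AGM-s3-A7 lowest, with a log2 ratio of AGM-s3-A9 over AGM-s3-A7 of 0.39 and 0.43, above the SD, and one of OP9 over AGM-s3-A7 of 0.24 and 0.16, within it. This order turned on deposited intensities, where 114697_at read 359.7 in OP9, 277 in AGM-s3-A9 and 272 in AGM-s3-A7. The log2 ratio was then 0.02 for AGM-s3-A9 over AGM-s3-A7 and 0.38 for OP9 over AGM-s3-A9, which was -0.15 after normalization. A probe set on MG-U74A, 103005_s_at, just passed the detection level in AGM-s3-A9, at 53.7, and the other 2 stayed at or below 10.4. Alcam, whose product binds CD6 on T cells, and Jam2, which encodes the junctional molecule JAM-B, gave no ratio: the highest value of any line was 20.05 over the 4 Alcam probe sets and 33.5 over the 2 of Jam2.

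**Figure D2:**
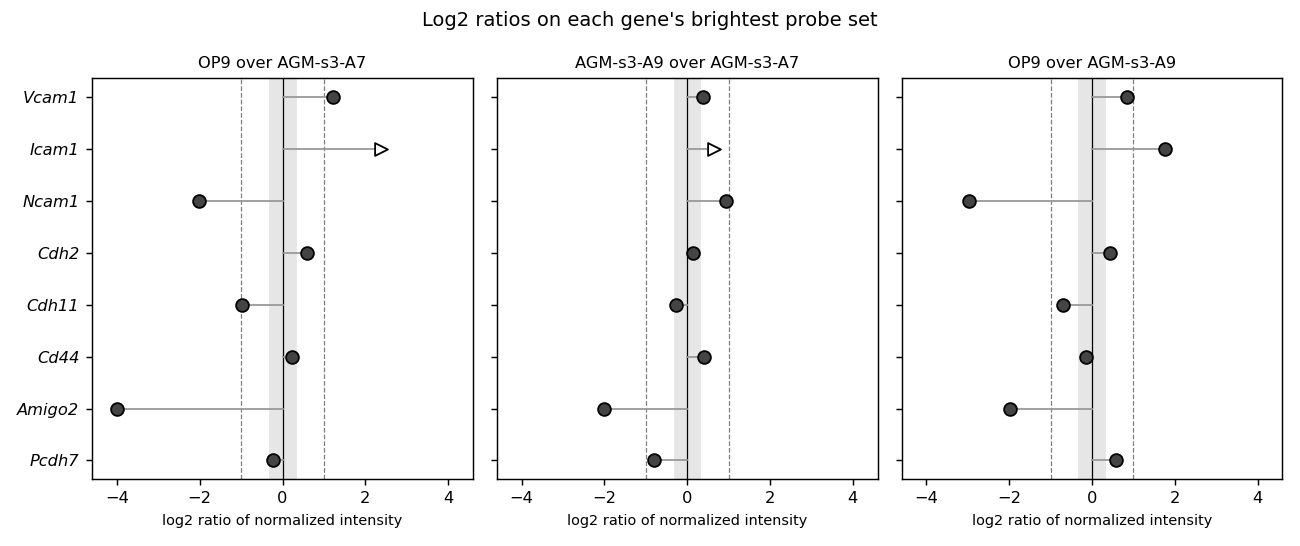
Log2 ratios of the 8 detected genes on their brightest probe set, for OP9 over AGM-s3-A7, AGM-s3-A9 over AGM-s3-A7 and OP9 over AGM-s3-A9; open triangles are lower bounds against a line at or below the detection level, the grey band is 1 robust SD of paired probe sets and dashed lines mark 2-fold. Amigo2 lay below 0 in all 3 panels, Vcam1 and Icam1 above 0, and Ncam1 on different sides against AGM-s3-A7.

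Over the 8 genes measured on their brightest probe set the median log2 ratio was 0.01 for OP9 over AGM-s3-A7 (range -3.99 to 2.39), 0.27 for AGM-s3-A9 over AGM-s3-A7 (-2.02 to 0.94) and 0.15 for OP9 over AGM-s3-A9 (-2.96 to 1.75). The same medians over all measured genes were 0.04, 0.01 and 0.02. The sign of the receptors' median for OP9 over AGM-s3-A9 depended on the processing. It was -0.10 on intensities as deposited and -0.15 with the floor at the median or at the 75th percentile. Under the other alternatives it stayed above 0. In OP9 over AGM-s3-A7, 4 genes lay above 0 and 4 below. The 8 genes thus had no common direction. The AGM-s3-A7 arrays are shared by both comparisons made with them.

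**Figure D3:**
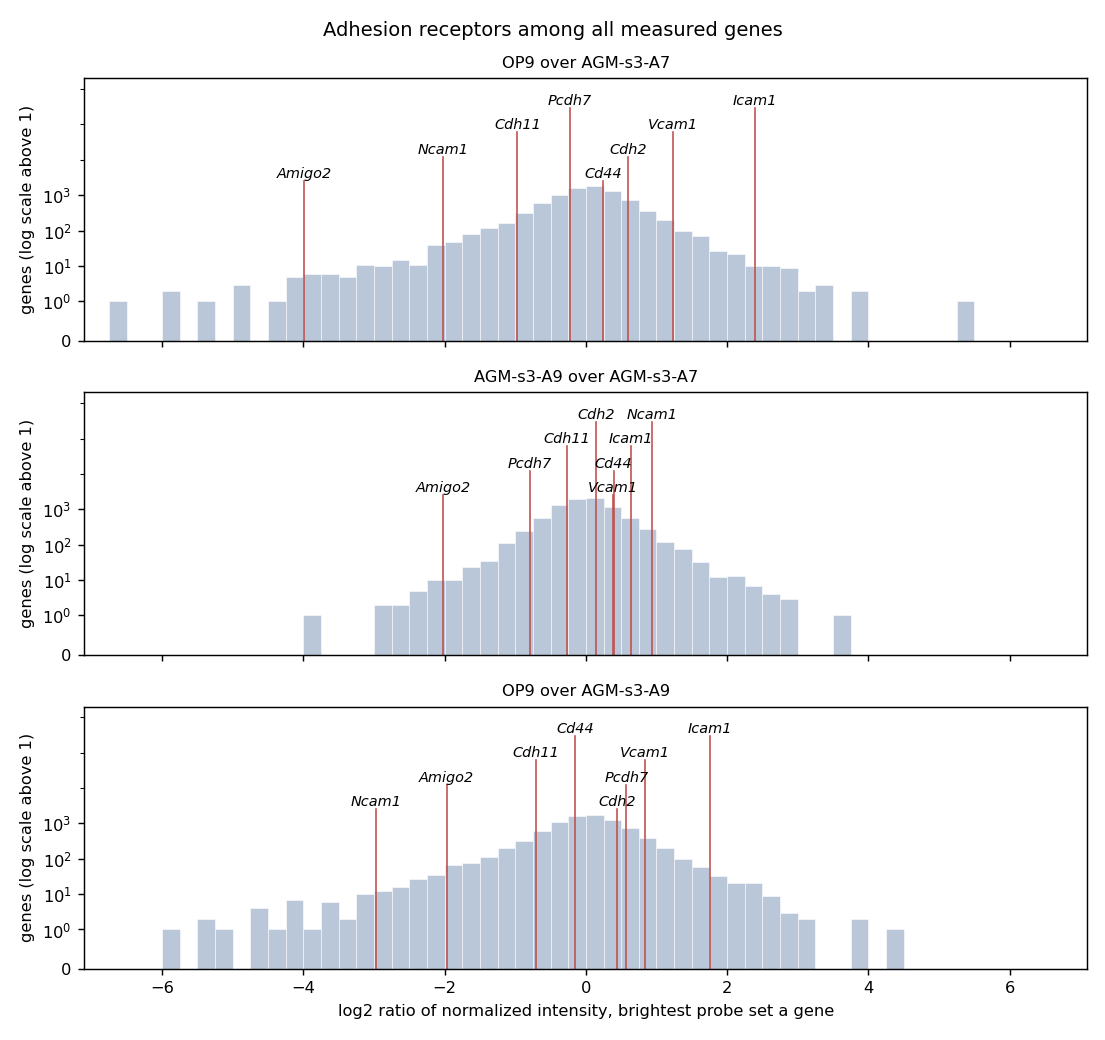
Number of measured genes (log scale above 1) by log2 ratio on the brightest probe set in bins of 0.25, for the 3 comparisons, with red lines at the 8 detected adhesion receptors. Icam1 lies in the upper tail of OP9 over AGM-s3-A7 and Amigo2 in the lower tail of both comparisons against AGM-s3-A7.

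By likeness over the 3 lines, the genes nearest to the brightest Vcam1 probe set were Rtkn, Gtf2h1 and Bcl2l1, among 4087 others detected in all lines on MG-U74A. The other Vcam1 probe sets, whose ratios differed as given above, were not compared in this way. Likeness was the Euclidean distance of log2 values centred on each gene's mean over the lines. Rtkn, at a distance of 0.02, read 119 in OP9, 65.3 in AGM-s3-A9 and 51.01 in AGM-s3-A7, the last just above the detection level of 49.01. Gtf2h1 (0.05) and Bcl2l1 (0.05) were likewise highest in OP9. Only 3 points enter each distance, which is far below the SD of paired probe sets.

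Other adhesion genes and partners were set beside these receptors in 10 lists, each gene on its brightest probe set. At the level of genes, 5.14% of all measured genes reached 2-fold upward and 5.98% downward for OP9 over AGM-s3-A7. The shares were 3.08% and 2.28% for AGM-s3-A9 over AGM-s3-A7, and 5.06% and 6.58% for OP9 over AGM-s3-A9. Among 13 measured genes of the immunoglobulin superfamily, 0 were at least 2-fold higher and 2 lower for OP9 over AGM-s3-A7 (median log2 ratio -0.21). For AGM-s3-A9 over AGM-s3-A7, 2 were higher and 1 lower (0.32), and for OP9 over AGM-s3-A9, 0 were higher and 3 lower (-0.61). Thy1, a GPI-anchored stromal surface protein, was at 4.61 in OP9, 416 in AGM-s3-A9 and 206 in AGM-s3-A7, the order seen for Ncam1. Nectin2, a partner of cadherins at cell junctions, was at 133 in OP9, 299 in AGM-s3-A9 and 269 in AGM-s3-A7, and a second probe set did not reach 2-fold. Against AGM-s3-A7, AGM-s3-A9 was 2.06-fold higher for Igsf3 and at least 2.03-fold lower for Cadm1, which was read on a probe set with a cross-hybridisation suffix.

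Of 3 measured cadherins besides the receptors above, Cdh13, the GPI-anchored T-cadherin, was at 5.23 in OP9, 40.3 in AGM-s3-A9 and 268 in AGM-s3-A7. It was at least 5.07-fold lower in each supportive line, and 2 further probe sets were detected in AGM-s3-A7 alone as well. Of 10 catenins and plaque genes, 0 were shown to be 2-fold apart between OP9 and AGM-s3-A7. Jup, which encodes plakoglobin, was not detected in OP9, so that its ratio there is only a bound, and AGM-s3-A9 was 2.72-fold above AGM-s3-A7. For Afdn, the afadin gene, AGM-s3-A9 was 2.09-fold below AGM-s3-A7, with a second probe set in the same direction. Ctnnd1, the p120-catenin gene that stabilises cadherins, read 699 in OP9, 1468 in AGM-s3-A9 and 1007 in AGM-s3-A7. Among the protocadherins and large cadherins, OP9 was 2.34-fold below AGM-s3-A7 for Pcdh18 and 2.04-fold above AGM-s3-A9 for Pcdh19.

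Among partners of CD44, 1 of 5 measured was at least 2-fold higher and 0 lower for OP9 over AGM-s3-A7, beside 5.14% and 5.98% of all genes. For AGM-s3-A9 over AGM-s3-A7, 1 of 6 was higher and 0 lower, beside 3.08% and 2.28%. For OP9 over AGM-s3-A9, 0 of 6 were higher and 1 lower, beside 5.06% and 6.58%. These shares rest on few genes. Vcan, the hyaluronan-binding proteoglycan versican, was at 697 in OP9, 1720.1 in AGM-s3-A9 and 616 in AGM-s3-A7, so that AGM-s3-A9 was 2.79-fold above AGM-s3-A7. For Hyal2, a hyaluronidase, OP9 was 2.06-fold above AGM-s3-A7. The linkers of CD44 to actin, Ezr, Rdx and Msn, were 2-fold apart in 0 of the 3 comparisons. Of 9 integrin subunits that pair into receptors for these ligands, Itgb1 and Itgb7 were detected. Itgb7 read 57.98 in OP9, 38.3 in AGM-s3-A9, below the detection level, and 67.9 in AGM-s3-A7. Itgb1, the beta chain of VLA-4, read 2797 in OP9, 2252 in AGM-s3-A9 and 2955 in AGM-s3-A7 on a probe set whose name marks it as able to read related genes; these subunits and the linkers are named after their values were seen. Of 9 measured membrane proteases and inhibitors, 2 were at least 2-fold higher and 1 lower for OP9 over AGM-s3-A7, and 0 reached 2-fold between the AGM lines. Timp3, an inhibitor of such proteases, was at 663 in OP9, 119 in AGM-s3-A9 and 231 in AGM-s3-A7. Against AGM-s3-A7, OP9 was 3.18-fold lower for Adam19 and 2.71-fold higher for Adam15. AGM-s3-A9 was 1.99-fold above AGM-s3-A7 for Adam15.

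Because cytokines induce Vcam1 and Icam1 through NF-kB, genes of that pathway were set beside them. Of 11 measured, 0 were at least 2-fold higher and 2 lower for OP9 over AGM-s3-A7 (median log2 ratio -0.29), 0 and 0 for AGM-s3-A9 over AGM-s3-A7 (0.06), and 0 and 5 for OP9 over AGM-s3-A9 (-0.32). Bcl3, a regulator of the pathway, was at 19.9 in OP9, 232 in AGM-s3-A9 and 280 in AGM-s3-A7, and a second probe set did not reach 2-fold. Relb, a subunit, read 91.6 in OP9, 246 in AGM-s3-A9 and 149 in AGM-s3-A7. OP9 was 2.25-fold below AGM-s3-A9 for Nfkbie, an inhibitor, and 2.06-fold below it for Il1r1, the interleukin-1 receptor gene. A second Nfkbie probe set placed AGM-s3-A7 lowest. On their brightest probe sets, 7 of the 11 genes were lowest in OP9 and 3 were highest there, Ikbkb, Nfkbib and Tnfrsf1a, which were named after their values were seen. Of these 3, the kinase gene Ikbkb read 154 in OP9, 94.9 in AGM-s3-A9 and 102 in AGM-s3-A7. The share of all measured genes that were lowest or highest in OP9 was not counted. The counts of 7 and 3 are therefore no result about the pathway.

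**Figure D4:**
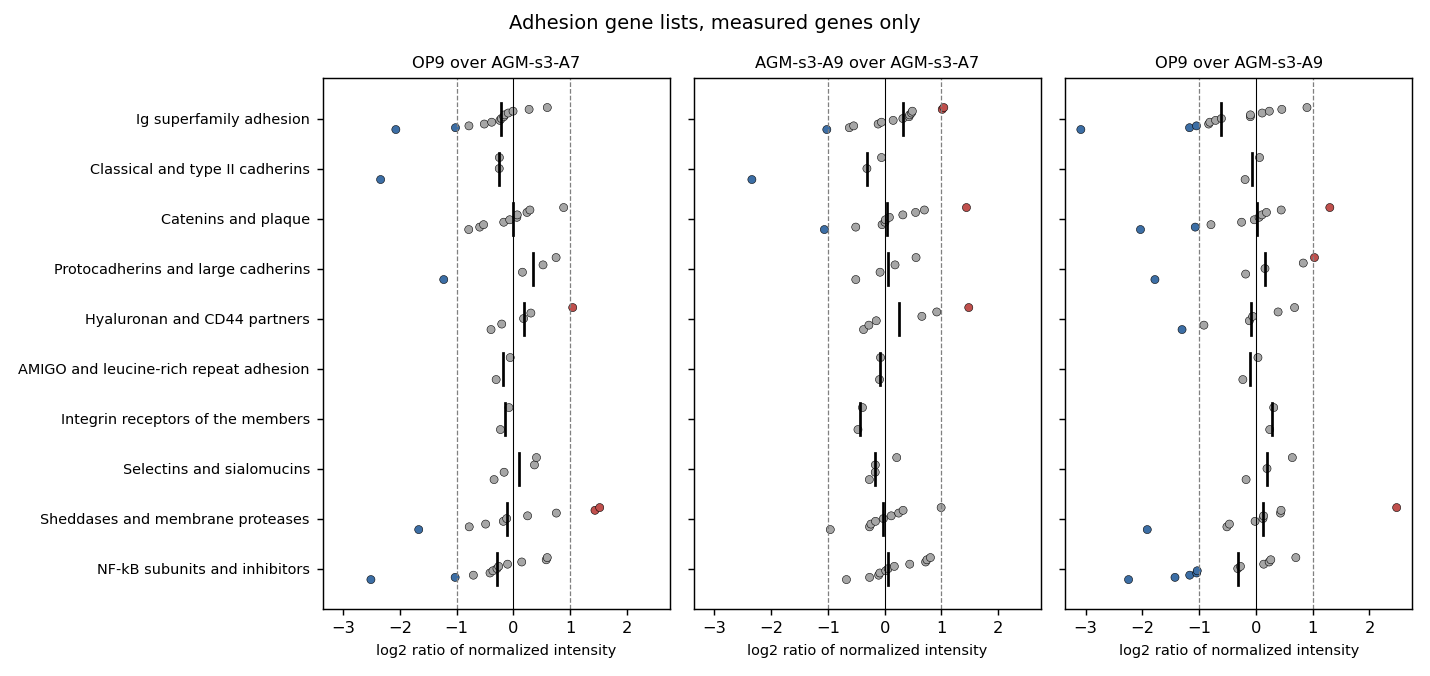
Log2 ratios of the measured genes of 10 lists, the 10 receptors left out, for the 3 comparisons; each point is a gene on its brightest probe set, red at least 2-fold higher, blue at least 2-fold lower, grey the rest, with black bars at list medians and dashed lines at 2-fold. In OP9 over AGM-s3-A9, 3 of 13 immunoglobulin superfamily genes and 5 of 11 NF-kB pathway genes were at least 2-fold lower. Among all measured genes of that pair, 6.58% were. Some of the called genes, such as Igsf3 and Il1r1, lay just past 2-fold, and the lists were chosen with earlier results known.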

How the data were processed

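Expression of 3 mouse stromal lines was measured once on each of 3 Affymetrix array types. Per the labels' protocols, RNA came from RNeasy columns, and 6 ug of total RNA gave the biotinylated cRNA. The authors deposited 1 intensity, on a linear scale, for each probe set of an array. How these were scanned, summarised over probes and scaled is not stated by the labels. Trimmed means (2% at each end) of the arrays of a type differed by 49.7% to 61.1%, so log2 intensities were quantile-normalized within each array type, which removes any general shift between lines. Control probe sets without a target numbered 34 per array type. The platform annotation gave 1 symbol for 29131 of 36701 probe sets, several for 724 and none for 6846; all 10 member symbols matched their gene identifiers in RefSeq. The brightest probe set over the 3 lines stood for a gene. Named genes were all members, up to 4 genes per list with the largest difference of at least 2-fold, and the 3 nearest to Vcam1. Members and lists were chosen with earlier results of these data known. Every comparison had 1 array per line, so no test was run; the number of arrays limits the precision. Alternatives covered scaling, floors, suffixes and the choice of probe set. Fold calculations used Python 3.11.15, numpy 2.4.6 and pandas 2.3.3. They were tested on simulated data with changes in bright probe sets only and less noise than the SD of paired probe sets. Such data say little of ratios near the detection level.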

Additional observations from a re-analysis of the deposited data

Results flagged for a closer look

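Genes were picked out where OP9 and AGM-s3-A9 lay on opposite sides of AGM-s3-A7, each by more than the SD of paired probe sets. This cutoff is low, and error alone can pass it. The list genes screened were the named ones, already chosen for a difference of at least 2-fold in any comparison, which favours such a pattern. The difference was not tested, each line has 1 array, and both ratios share the AGM-s3-A7 array. Among the receptors this held for Ncam1, with a log2 ratio of -2.02 in OP9 and 0.94 in AGM-s3-A9. Among the named list genes, Pcdh18 had -1.23 in OP9 and 0.55 in AGM-s3-A9, Relb -0.71 and 0.72, Ctnnd1 -0.53 and 0.54, and Nfkbie -0.36 and 0.81, in the same order. A second Nfkbie probe set had at least 0.39 in OP9 and so went the other way there. Thy1 and Jup were not detected in OP9, so that their values of -2.07 and -0.59 in OP9 are bounds on a larger difference, beside 1.01 and 1.44 in AGM-s3-A9. Of the reverse kind were Timp3, with 1.52 in OP9 and -0.96 in AGM-s3-A9, and Pcdh19, with 0.52 and -0.51.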

How the results depend on the processing

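Of 164 values of single genes recomputed under 7 alternatives, 142 moved by less than the SD of paired probe sets, 22 moved further and 0 of those at 2-fold changed sign. The 8 ratios at 2-fold kept their sign in 56 of 56 alternatives and 2-fold in 53. Part of this agreement was fixed in advance. Leaving out suffixed probe sets, or taking the median as floor, left the values of the 8 measured genes as they were. The median as floor also gave Jam2 a ratio, which entered the medians over genes. That for AGM-s3-A9 over AGM-s3-A7 was then 0.34. Raising a floor cannot turn a sign, and a gene with 1 measured probe set cannot move under the median over probe sets. On intensities as deposited, 6 member probe sets reached 2-fold upward for AGM-s3-A9 over AGM-s3-A7 and the median log2 ratio of the genes was 0.68, while 5 reached it downward for OP9 over AGM-s3-A9; the AGM-s3-A9 array of MG-U74A was brighter overall. With the median as floor 1, of Jam2, was higher for AGM-s3-A9 over AGM-s3-A7. With the floor at the 75th percentile 1 was higher for OP9 over AGM-s3-A7 and 0 for OP9 over AGM-s3-A9, since that floor lies above the AGM-s3-A9 and AGM-s3-A7 values of Icam1. No paired analysis was possible because each group holds 1 array. The signal of Icam1, Pcdh7, OP9 Ncam1 and OP9 Amigo2 lay within a few-fold of background, which limits their ratios.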

Other observations

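Selectins and sialomucins, the carbohydrate-dependent adhesion system of vessels and blood cells, were detected for 4 of 9 genes on the arrays, and 0 were shown to be 2-fold apart. For Cd34 and Podxl some ratios were only lower bounds, since Cd34 lay below the detection level in OP9 and AGM-s3-A9, and Podxl in AGM-s3-A9. Cd164, a sialomucin of stromal and progenitor cells, read 1816 in OP9, 1587 in AGM-s3-A9 and 1371 in AGM-s3-A7. Of 11 leucine-rich repeat adhesion genes besides Amigo2, 2 were detected, Flrt3 and Lingo1, and neither was 2-fold apart. Flrt3 read 657 in OP9, 642 in AGM-s3-A9 and 684 in AGM-s3-A7. These genes are named after their values were seen.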
